A study of Mus musculus with 35 samples.

Results

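The comparison described here set the livers of mice given SP300 at 200 mg/kg against those of control mice given deionized water, across all annotated genes. It used the 5 arrays labelled liver with 200 mg/kg SP300 and the 5 labelled liver control, 10 of the 35 arrays of the series. SP300 is the largest of 3 silica particle sizes in the study, and the mice of the 200 mg/kg group are called high-dose mice below. Every mouse was BALB/c, received an intravenous injection, was assigned to its group at random and was killed 6 h later, when RNA was taken from the left lateral lobe and measured on 1 array per mouse. The series holds 7 groups of 5 mice, and 3 further groups are used here for comparison: SP300 at 10 mg/kg, SP70 at 40 mg/kg and SP30 at 10 mg/kg. For some gene lists the values of SP70 at 10 and 20 mg/kg are given too. The study's design text calls SP30 at 10, SP70 at 40 and SP300 at 200 mg/kg the toxic doses of the 3 sizes, so particle size and dose differ together between them. The question was what a dose of the largest particle that the study had found toxic does to gene expression in the liver. No age or sex is given in the sources used here, and each group is 1 time point of 1 strain.

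Particles injected into the blood reach the sinusoids of the liver, where Kupffer cells, the resident macrophages, and sinusoidal endothelial cells take them up. Activated macrophages release cytokines such as TNF, interleukin 1 and interleukin 6, and chemokines that draw neutrophils and monocytes from the blood. Hepatocytes answer these cytokines with the acute phase response, in which they secrete more serum amyloid A, lipocalin 2 and related plasma proteins. Because whole liver was measured, fewer cells of a type and less RNA per cell cannot be told apart.

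Values are MAS5 signals, on a linear scale with no unit, and differences are log2 differences of high-dose minus control mice with the standard error (SE) of the limma fit. A gene is called when its adjusted p is under 0.05. Of 12678 genes tested, 1595 (12.6%) rose and 2284 (18.0%) fell, 3879 (30.6%) in all. By at least 2-fold, 364 (2.87%) rose and 303 (2.39%) fell. All 5 high-dose mice lay above all 5 control mice for 1016 genes (8.01%) and below them for 1560 (12.3%). The excess of falling genes depended on the scaling of the arrays. With each array centred on its median 1953 genes rose and 1810 fell, and quantile normalization gave 1989 and 1984, while the median of all genes was -0.01 under both, against -0.06 as deposited. Leaving out 1 mouse ended the calls against control of Alb, Apoa2, Ccl6, Ccr2, Dusp1, Foxa3, Gadd45g, H2-DMa, Hnf4a, Hsp90aa1, Il1a, Pcna, Prox1 and Vcam1 among the genes described below. Calls were also gained under some settings, for Asns, Atf3, Atf4, Fga, Fos, Hp and Sesn2, with the values given beside these genes. Fitting only these 10 arrays ended the calls of Tnf, Casp1, Foxa3, H2-DMa, Jun and Vcam1. Averaging all probe sets of a gene ended those of Mt1, Msr1, Pfkfb3 and Vcam1. The median signal of the arrays averaged 156 ± 5.87 in high-dose mice and 163 ± 10.9 in control mice (SD, n = 5 each; exact permutation test, p = 0.238). The ratio of the 3′ to the 5′ control probe set of Gapdh, a sign of RNA integrity, averaged 0.766 ± 0.0369 in high-dose mice and 0.788 ± 0.0250 in control mice (p = 0.286, exact permutation test). For beta-actin the same ratio averaged 1.89 ± 0.130 in high-dose mice and 2.37 ± 0.112 in control mice, and the groups did not overlap (exact two-sided permutation p = 0.00794, the smallest that 5 against 5 mice can give). Its part in the results was not tested. Where signals in the lower of 2 groups were under 165, the median of all values in the table, a fold is given as at least and was computed with such signals raised to 165.

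The genes that rose most in high-dose mice were acute phase proteins, chemokines and surface proteins of myeloid cells. Saa3, an amyloid A protein made by the inflamed liver and by macrophages, had signals of 81843, 80834, 68768, 69971 and 77783 in high-dose mice, against 1578, 1279.8, 949, 884 and 1139 in control mice. Every high-dose mouse was far above every control mouse, a rise of 66.3-fold (6.04 ± 0.12, adjusted p = 1.87e-29). Lcn2, which binds bacterial siderophores, had 74611, 70222, 74296, 78281 and 69601 in high-dose mice, against 3897, 3254, 1394, 1209 and 1719 in control mice. The high-dose mice lay far above the control mice and, in proportion to their level, closer together, and the rise was 35.7-fold (5.15 ± 0.22). No saturation calls were at hand for signals as bright as those of Saa3 and Lcn2, and a part of saturation in their spread was not tested. Cxcl1, a neutrophil chemoattractant, had 22269, 42425, 31865, 47708 and 41138 in high-dose mice, against 946, 1049.7, 1240, 2049.8 and 632 in control mice, and rose 32.6-fold (5.01 ± 0.25). Cxcl2, its close relative, had 1414, 2805, 1192, 2658 and 3222 in high-dose mice, against 108, 104, 121, 62 and 72.5 in control mice. All control mice were below 165, so the rise was at least 12.7-fold (4.35 ± 0.36). Ccl2, which draws monocytes, had 683, 1884, 725, 1678 and 2069 in high-dose mice, against 16.1, 42.6, 6.56, 18.3 and 119 in control mice. All control mice were below 165 and all high-dose mice above it, so the rise was at least 7.67-fold (4.95 ± 0.34). Ccl3, another chemokine of activated macrophages, rose at least 4.00-fold (4.58 ± 0.25). Cxcl9, a chemokine for activated T cells that interferon gamma induces, had 42097, 30613, 19722, 35663 and 45294 in high-dose mice, against 1793, 1159.6, 994, 1338 and 909 in control mice, and rose 27.7-fold (4.78 ± 0.22). Gbp2, a guanylate-binding GTPase of the same response, had 5432, 6198, 3472, 6696 and 10522 in high-dose mice, against 247, 292, 226, 165 and 228 in control mice, with the lowest control mouse just under 165 (at least 26.6-fold, 4.66 ± 0.22). Cd14, the co-receptor for endotoxin, had 7094, 9093, 6111, 9298 and 15140 in high-dose mice, against 375, 486, 252, 421 and 386 in control mice (23.7-fold, 4.52 ± 0.26). Clec4d, a C-type lectin of neutrophils and monocytes, rose at least 6.34-fold (5.10 ± 0.28), Chil3, a chitinase-like protein of myeloid cells, at least 4.03-fold (4.46 ± 0.42), and the hydroxybutyrate receptor Hcar2 at least 3.97-fold (4.34 ± 0.33). For these 12 genes the groups did not overlap, which the rule that chose them required.

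Promoter windows of RefSeq (build GRCm38.p6), from 250 bases before to 50 bases after an annotated start, were at hand for 9 of these 12 genes. They are shown for the paired chemokines Cxcl1 and Cxcl2, which lie close together on chromosome 5 and rose together, with matches to the NF-kB consensus (either strand) in capitals. The window of Cxcl1 is chr5:90890995-90891294 and that of Cxcl2 chr5:90903649-90903948, both on the + strand.
Cxcl1: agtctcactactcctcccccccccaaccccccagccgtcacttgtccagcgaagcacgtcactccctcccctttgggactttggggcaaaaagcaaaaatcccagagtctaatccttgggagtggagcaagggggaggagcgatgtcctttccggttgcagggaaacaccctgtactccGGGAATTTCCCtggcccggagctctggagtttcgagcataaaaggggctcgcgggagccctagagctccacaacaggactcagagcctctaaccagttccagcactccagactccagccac
Cxcl2: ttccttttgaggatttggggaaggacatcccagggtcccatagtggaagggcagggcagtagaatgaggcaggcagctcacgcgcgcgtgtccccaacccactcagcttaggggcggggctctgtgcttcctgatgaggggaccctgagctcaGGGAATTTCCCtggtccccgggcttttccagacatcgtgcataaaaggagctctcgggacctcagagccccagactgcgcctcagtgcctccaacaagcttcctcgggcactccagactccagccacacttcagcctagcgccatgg
In both windows the same run of 11 bases holds a match on each strand, which overlap. It starts 71 bases before the annotated start of Cxcl1 and 97 before that of Cxcl2. Among the 12 highest genes, 3 of the 9 windows hold a match (Cxcl1, Cxcl2 and Gbp2), against 2779 of all 32851 windows (8.46%). The gamma-activated site TTCNNNGAA was found in 1 of the 9 (Chil3) and in 8.30% of all windows. A match is a string of letters and was not tested for binding.

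The genes that fell most were, with 1 exception, genes known from tissue macrophages and related myeloid cells. Clec4f, a galactose-binding lectin of mouse Kupffer cells, had signals of 21.2, 127, 13.6, 43.5 and 22.4 in high-dose mice, against 4136, 3845, 3055, 3955 and 3927 in control mice. No high-dose mouse reached 165, so the fall was at least 22.8-fold (-6.31 ± 0.47, adjusted p = 1.07e-12). The 3 chains of C1q, the complement protein that macrophages make, fell together. C1qa had 132, 54.7, 89.1, 129 and 34.4 in high-dose mice, against 3931, 3279, 2869, 3665 and 4444 in control mice (at least 21.8-fold lower, -5.30 ± 0.41). C1qb had 119, 85.1, 138, 129 and 125 in high-dose mice, against 2871, 2066, 2319.6, 3413 and 3779 in control mice (at least 17.1-fold, -4.44 ± 0.48). C1qc had 24.7, 32.8, 20.3, 35.8 and 8.47 in high-dose mice, against 2358, 2359, 1978, 2579.5 and 2386 in control mice (at least 14.1-fold, -6.04 ± 0.35), and no high-dose mouse reached 165 for any of the 3. Vsig4, a complement receptor of Kupffer cells, had 153, 178, 128, 229.9 and 15.5 in high-dose mice, against 6316, 4849, 3750.5, 5981 and 7056 in control mice. In 2 high-dose mice it was above 165, and the fall was at least 30.5-fold (-5.46 ± 0.47). Cd163, which takes up haemoglobin bound to haptoglobin, fell at least 8.56-fold (-5.14 ± 0.40). Cd5l, a protein secreted by macrophages, fell at least 16.8-fold (-4.39 ± 0.29), and Timd4, a receptor for phosphatidylserine, at least 2.45-fold (-4.30 ± 0.49). Adamdec1, a metalloprotease of macrophages, fell at least 6.85-fold (-4.11 ± 0.33), Adgre4, an adhesion receptor related to F4/80, at least 4.87-fold (-4.01 ± 0.35), and Cd209g, a lectin of the DC-SIGN family, at least 2.31-fold (-3.40 ± 0.57). The exception was Onecut1, a transcription factor of hepatocytes and bile ducts also called HNF6, with signals of 236, 272, 241, 291 and 313 in high-dose mice, against 3041, 3037, 2908, 3201 and 5204 in control mice. All 5 high-dose mice were above the floor, and the fall was 12.6-fold (-3.60 ± 0.55).

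**Figure D1:**
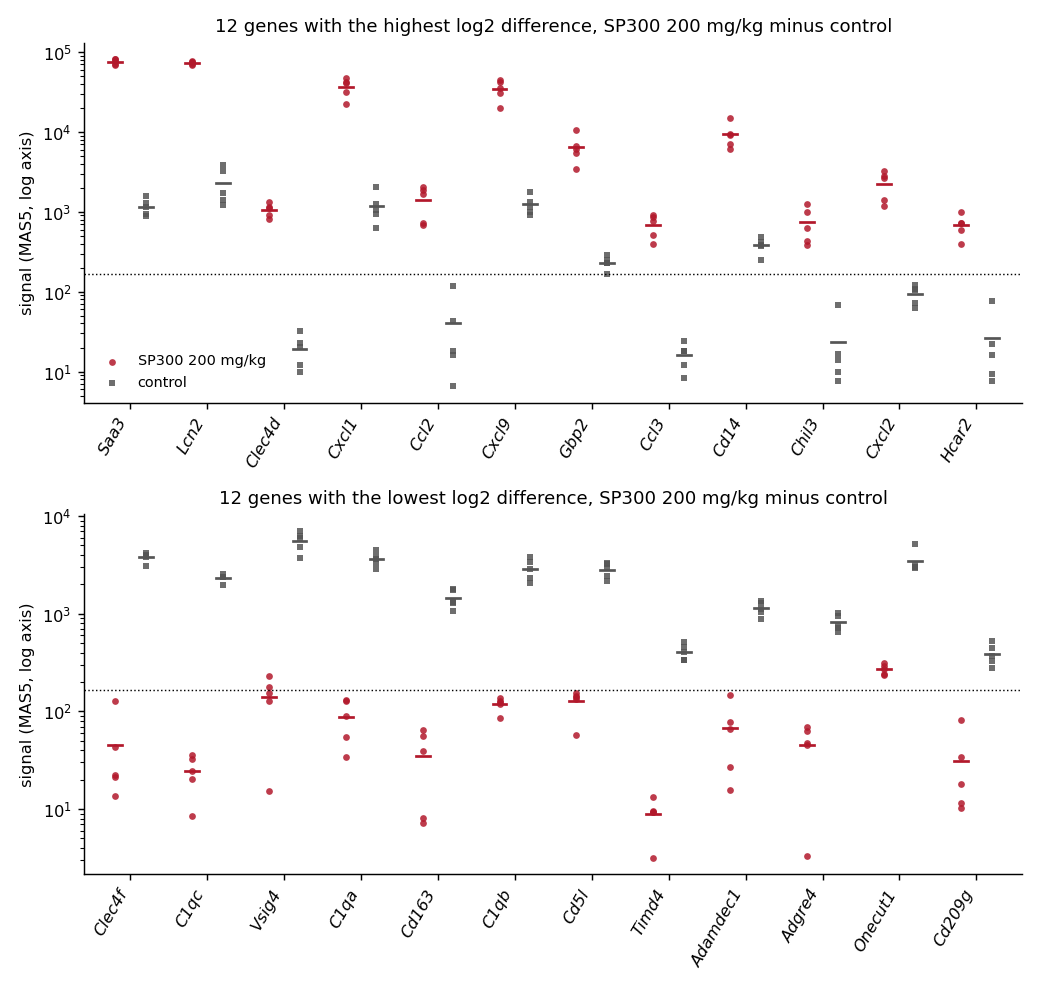
Signal of each mouse on a log axis for the 12 highest (top) and 12 lowest (bottom) genes of the comparison, with high-dose mice as circles left of control mice as squares, group means as short bars and the floor of 165 dotted. The groups do not overlap for any of the 24 genes, which the rule that chose them required. Onecut1 is the only one of the 12 lowest whose high-dose mice are all above the floor.

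Windows were at hand for 10 of the 12 lowest genes. That of C1qc (chr4:136892865-136893164, GRCm38.p6, minus strand) is shown as the window of a macrophage gene, with the match to GAGGAAGT, a core of sites for the macrophage factor PU.1, in capitals. The match reads along the opposite strand, so that its reverse complement is printed.
C1qc: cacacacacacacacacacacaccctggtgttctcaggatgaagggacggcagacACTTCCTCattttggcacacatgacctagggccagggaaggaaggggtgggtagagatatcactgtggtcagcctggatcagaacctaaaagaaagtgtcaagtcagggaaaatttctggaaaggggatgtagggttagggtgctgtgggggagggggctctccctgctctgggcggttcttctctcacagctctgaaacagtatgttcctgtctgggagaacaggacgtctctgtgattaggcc
The core was found in 2 of the 10 windows (Adgre4 and C1qc) and in 3.20% of all windows. The NF-kB consensus was found in 1 of the 10, C1qc.

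The plot of gene lists gives the share of each list that rose or fell, beside the shares over all genes. Among the lists in which most members rose and none fell were NF-kB genes (13 of 15), acute phase proteins (16 of 21), class I antigen processing (9 of 12) and the unfolded protein response (18 of 24). Kupffer cell markers fell in 17 of 20 under each scaling, and hepatic transporters in 10 of 17, or 9 under both other scalings. The respiratory chain fell in 11 of 19 as deposited and after quantile normalization, but in 4 of 19 in centred arrays.

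**Figure D2:**
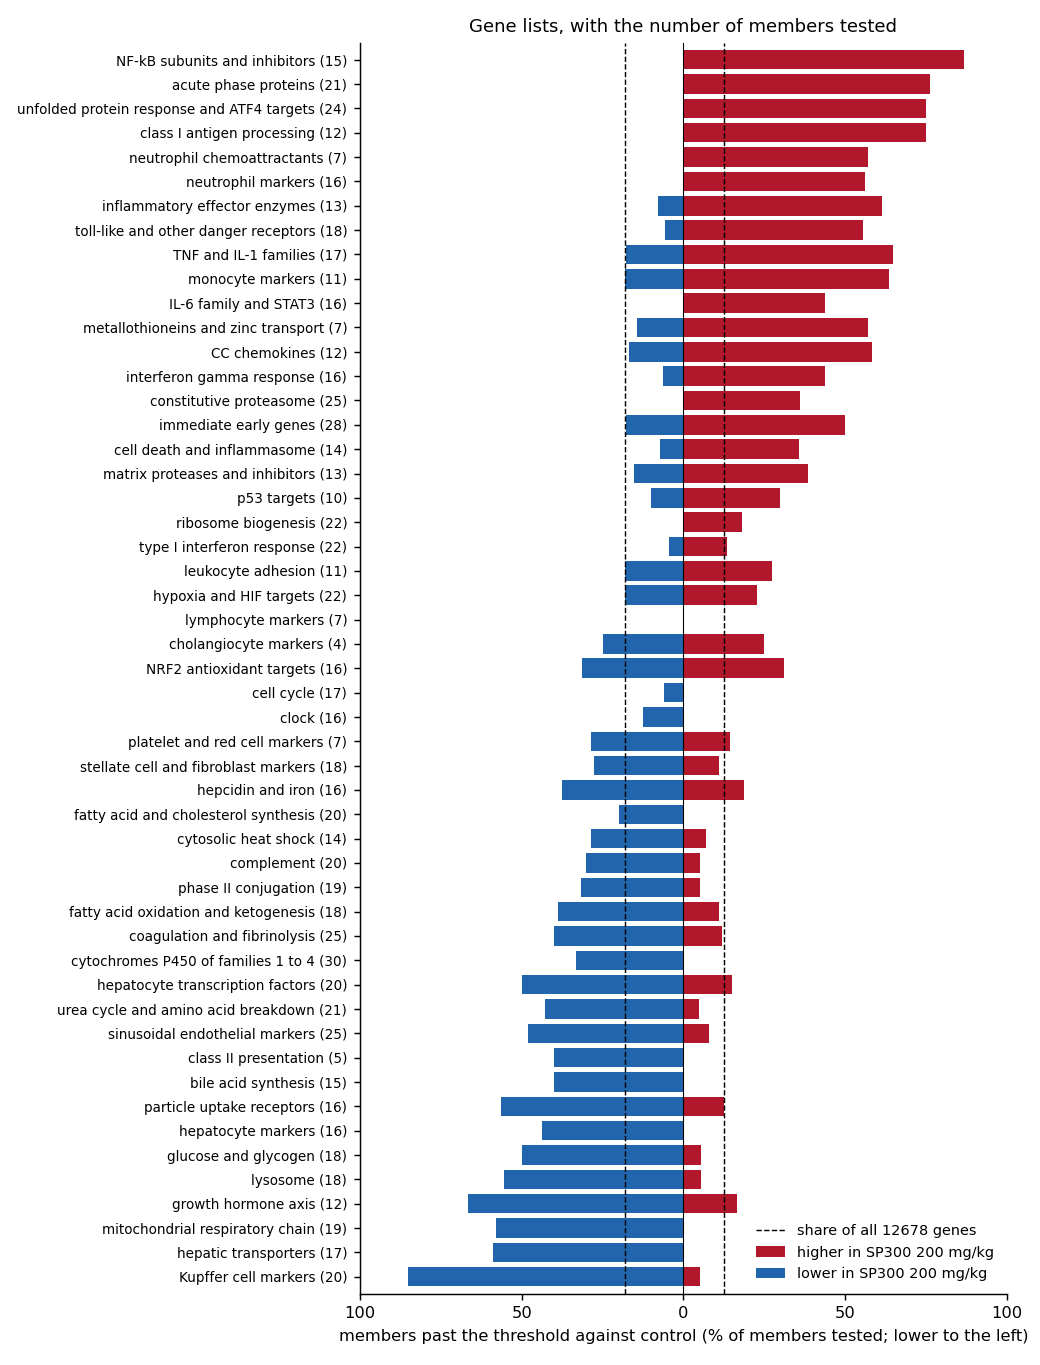
Share of the tested members of each of 51 gene lists that rose (right) or fell (left) in high-dose mice against control mice at an adjusted p under 0.05, with the number tested in brackets and dashed lines at 12.6% and 18.0%, the shares of all 12678 genes. NF-kB subunits and inhibitors had the highest share of rising members (13 of 15) and Kupffer cell markers the highest share of falling members (17 of 20).

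Receptors that sense microbes and injury were higher in 10 of 18 tested members and lower in 1 (median log2 difference 0.63). Tlr2, the receptor for bacterial lipoproteins, had 1312, 1479, 942, 1514 and 1598 in high-dose mice, against 254, 205, 117, 157 and 220.3 in control mice and rose at least 6.76-fold (2.79 ± 0.20). Clec4e, a lectin receptor for dead cells and fungi also called Mincle, rose at least 2.27-fold (3.42 ± 0.36), and Irak3, which damps Toll-like receptor signals, at least 2.88-fold (3.12 ± 0.36). The adaptors Myd88 (0.63 ± 0.10) and Ticam1 (0.76 ± 0.14) rose less. Tlr4, the endotoxin receptor, was at -0.43 ± 0.22 (adjusted p = 0.142) and did not pass, although its partners Cd14 and Ly96 (0.62 ± 0.14) rose. Tlr3, an endosomal receptor for double-stranded RNA, was the member that fell (-0.86 ± 0.21). Markers of neutrophils rose in 9 of 16 members in the same livers, with summed signals of 12760 to 28946 in high-dose mice, against 1951 to 4402 in control mice, and several of these receptors are also made by neutrophils. The part of such cells in these rises was not tested.

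Genes of the NF-kB pathway rose in 13 of 15 tested members and fell in none, with a median of 0.76. NF-kB is a family of dimers held in the cytosol by inhibitors that are themselves among its target genes. Ikbke, a kinase of the pathway, had 8779, 10765, 7064, 9509.8 and 11685 in high-dose mice, against 542, 630.2, 585, 578 and 559.8 in control mice, with no overlap between the groups (16.3-fold, 4.00 ± 0.18). Tnfaip3, or A20, which ends NF-kB signals, had 1278, 1985, 869, 1813 and 2326 in high-dose mice, against 160.2, 332, 106, 212 and 229 in control mice (at least 7.33-fold higher, 2.92 ± 0.29). Nfkbiz, a nuclear co-activator, had 3164 to 8829 in high-dose mice, against 664 to 1563 in control mice (2.89 ± 0.25). The inhibitors Nfkbie (1.27 ± 0.15), Nfkbib (0.76 ± 0.09) and Nfkbia (0.51 ± 0.11) rose by smaller amounts, as did the subunit Rela (0.41 ± 0.09). Rel, another subunit, and Nfkbid were at or below the floor in most mice and did not pass.

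Of 17 genes of the TNF and interleukin 1 families, 11 rose and 3 fell. Il1rn, the secreted antagonist of the interleukin 1 receptor, had 1067, 1574, 2029, 1849 and 1481 in high-dose mice, against 195, 121, 187, 111 and 112 in control mice, a rise of at least 8.94-fold (3.36 ± 0.33). Il1r1, the signalling receptor, had 5341, 8337, 5023, 7757 and 6871 in high-dose mice, against 1577, 1516, 1431, 1536 and 2636 in control mice, and every high-dose mouse was above every control mouse (3.86-fold, 1.94 ± 0.24). Il1b rose 2.35-fold (1.21 ± 0.18), whereas Il1a (-0.91 ± 0.35) and Il18 (-0.63 ± 0.13), 2 other cytokines of the family, fell. Il33, an alarm cytokine of stellate and endothelial cells, rose 3.65-fold (1.82 ± 0.28). Tnf itself was called (1.39 ± 0.35), but it was below 165 in all control mice and in 4 of the 5 high-dose mice, with 36.7 to 190.1 in high-dose mice, against 13.6 to 97.3 in control mice. Fas, a death receptor, rose 1.98-fold (0.98 ± 0.17), and Tnfrsf12a, the receptor of TWEAK, 2.91-fold (1.51 ± 0.24).

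Genes of interleukin 6 signalling rose in 7 of 16 tested members and fell in none, with a median of 0.35. Stat3, the transcription factor of this pathway, had 12308, 13266, 12650, 13384 and 14180 in high-dose mice, against 7714, 6529, 6819, 6582 and 5644 in control mice, and the groups did not overlap (1.98-fold, 0.99 ± 0.11). Socs3, its feedback inhibitor, had 3242 to 8836 in high-dose mice, against 435 to 3079 in control mice, so that control mice spread widely below the high-dose mice (5.58-fold, 2.46 ± 0.31). The receptor chains Il6st, or gp130 (0.94 ± 0.19), Osmr (0.85 ± 0.19) and Il6ra (0.71 ± 0.16) rose, as did the kinase gene Pim1 (1.16 ± 0.21). Cebpb, another factor of the acute phase response, had 23840 to 30037 in high-dose mice, against 24302 to 28255 in control mice and did not pass (-0.01 ± 0.10).

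Beyond the chemokines among the 12 highest genes, Ccl9, a chemokine that the liver already expressed strongly, had 31460, 29748, 28114, 28231 and 31222 in high-dose mice, against 9739.7, 13273, 10436, 11132 and 9162 in control mice, with no overlap (2.79-fold, 1.48 ± 0.11). Ccl4, a relative of Ccl3, rose 3.78-fold (1.86 ± 0.17), and Ccl5 at least 1.86-fold (0.87 ± 0.23). Of 12 CC chemokines 7 rose and 2 fell. The falling ones were Ccl24, an eosinophil chemoattractant made by Kupffer cells, with 11.3 to 42.7 in high-dose mice, against 149 to 485 in control mice (-3.06 ± 0.44), and Ccl6 (-0.61 ± 0.19). Of 7 neutrophil chemoattractants 4 rose. Cxcl5 (1.86 ± 0.41) and the CC chemokine Ccl20 (1.66 ± 0.45) passed on signals that were below 165 in at least 4 of 5 high-dose and in all control mice, so no fold is given for them. Csf3, the growth factor of neutrophils, was below 165 in all 10 mice and did not pass.

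Among genes that interferon gamma induces, 7 of 16 rose and 1 fell. Gbp3 had 4186, 3444, 3242, 5536 and 8642 in high-dose mice, against 686, 433, 748, 544 and 436 in control mice (8.42-fold, 3.05 ± 0.24). Gbp6 (7.48-fold, 2.90 ± 0.20) and Gbp7 (5.26-fold, 2.38 ± 0.17), 2 further GTPases of the family, rose as well. Irgm2, a GTPase of the related immunity-related family, fell (-1.10 ± 0.17), while Irgm1 (0.22 ± 0.14) and Igtp (-0.16 ± 0.17) did not pass. Cxcl10, which shares its receptor with Cxcl9, had 313, 579, 262, 600.1 and 706 in high-dose mice, against 328, 339, 283, 227 and 309.8 in control mice. The ranges overlapped, and the difference did not pass (0.62 ± 0.37, adjusted p = 0.213), beside the 27.7-fold rise of Cxcl9. Genes that type I interferon induces numbered 22, of which 3 rose and 1 fell (median -0.10), a share of rising genes close to that of all genes. Ifit1 (-0.00 ± 0.21), Rsad2 (-0.29 ± 0.23) and Irf7 (0.01 ± 0.12), members that respond widely to type I interferon, did not pass. Zbp1, a sensor of nucleic acids, rose (3.01-fold, 1.56 ± 0.22). Class I antigen processing rose in 9 of 12 members by small amounts, with Psmb10, a subunit of the immunoproteasome, at 2.28-fold (1.18 ± 0.10), and Tap2, a peptide transporter, at 0.81 ± 0.10.

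Enzymes that inflamed cells use were led by Acod1, which makes itaconate, with 366, 352, 414, 477 and 546 in high-dose mice, against 34.6, 8.57, 8.50, 19.2 and 9.08 in control mice. The rise was at least 2.58-fold (4.02 ± 0.23). Of 13 such genes 8 rose and 1 fell. Alox5ap, needed for leukotriene synthesis, rose 2.19-fold (1.09 ± 0.16), and Sod2, the mitochondrial superoxide dismutase, had 31253 to 39040 in high-dose mice, against 25527 to 30479 in control mice (0.36 ± 0.07). Cybb, the catalytic subunit of the phagocyte oxidase, fell (-0.81 ± 0.17). Ptgs2, or cyclooxygenase 2, passed (2.36 ± 0.49) with signals of 26.4 to 214 in high-dose mice, against 1.66 to 10.6 in control mice, mostly below the floor.

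Genes of the acute phase response rose in 16 of 21 tested members and fell in none, with a median of 0.51. Saa2 had 57729, 55971, 59186, 60297 and 55385 in high-dose mice, against 4031, 3578, 2179.9, 2173 and 3650.5 in control mice (19.1-fold, 4.25 ± 0.25), and Saa1 85280, 80494, 81551, 83860 and 80456 in high-dose mice, against 15615, 24379, 11971, 11503 and 22073 in control mice (5.04-fold, 2.33 ± 0.17). The table holds no saturation calls for such bright signals. Orm2, an orosomucoid, had 21665 to 34579 in high-dose mice, against 971 to 4674 in control mice (14.9-fold, 3.89 ± 0.23), whereas Orm1, already bright in control mice, rose 1.36-fold (0.45 ± 0.06). Steap4, a metal reductase that inflammation induces, had 63340, 62253, 58503, 69007 and 64832 in high-dose mice, against 10378, 6741, 12703, 11285 and 13766 in control mice (5.95-fold, 2.57 ± 0.12). Lbp, which carries endotoxin to Cd14, rose 2.95-fold (1.56 ± 0.11), and Serpina3n, a protease inhibitor, 2.49-fold (1.31 ± 0.10). Crp, a minor acute phase protein in mice, rose 1.78-fold (0.83 ± 0.06). The fibrinogen chains Fga (-0.17 ± 0.07), Fgb (-0.00 ± 0.06) and Fgg (-0.11 ± 0.05) and haptoglobin, Hp (-0.19 ± 0.08), did not pass as fitted. Fga passed as lower with the filter on the mean (adjusted p = 0.0482), in the fit of only these 10 arrays (0.0146) and without high-dose mouse 1 (0.0348), and Hp in that fit (0.0384) and without that mouse (0.0452). With each array centred on its median the list again had 16 rising and 0 falling members, and without high-dose mouse 1 it had 16 and 2.

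Among complement genes 1 of 20 rose and 6 fell, and the small changes turned on the scaling, with 4 rising and 4 falling in centred arrays, and 2 and 4 without control mouse 5. Cfp, or properdin, which stabilizes the alternative pathway convertase and is made by macrophages and neutrophils, had 145, 43.3, 134, 184 and 169 in high-dose mice, against 1136, 1086, 905, 1304 and 1281 in control mice, at least 6.68-fold lower (-3.08 ± 0.27), although 1 of its 2 kept probe sets did not share this direction. Cfb, the protease of the alternative pathway, rose (1.45-fold, 0.53 ± 0.08). Coagulation genes fell in 10 of 25 members, while 3 rose, and 7 fell in centred arrays. Klkb1, prekallikrein, fell 1.73-fold (-0.79 ± 0.10), and Serpind1, heparin cofactor II, 1.60-fold (-0.68 ± 0.10). Procr, the endothelial receptor of protein C, rose at least 1.79-fold (1.47 ± 0.27), and Plaur, the urokinase receptor, 1.81-fold (0.83 ± 0.14).

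Metallothioneins, small proteins that bind zinc, rose. Mt2 had 71073, 64643, 66649, 71170 and 64958 in high-dose mice, against 35662, 6645, 5867, 7786 and 17824 in control mice. Every high-dose mouse was above every control mouse, and the rise was 5.93-fold (2.57 ± 0.28). Mt1 rose 3.53-fold (1.82 ± 0.23), with 1 of its 2 kept probe sets in this direction. Slc39a14, the zinc and iron importer that inflammation induces in hepatocytes, rose 2.37-fold (1.25 ± 0.12; 3 of 4 probe sets), while Slc30a1, a zinc exporter, fell 2.14-fold (-1.09 ± 0.12). Hamp, hepcidin, the hormone that closes the iron exporter ferroportin, had 52775, 61225, 58553, 63976 and 51642 in high-dose mice, against 56662, 28814, 32909, 40484 and 43868 in control mice. The ranges overlapped, and the rise was 1.46-fold (0.54 ± 0.14, adjusted p = 0.00255). Slc40a1, ferroportin itself, fell 2.44-fold (-1.28 ± 0.18), and Slc11a2, an iron importer, rose 3.31-fold (1.72 ± 0.14). Bmp2, an endothelial signal for hepcidin (-0.79 ± 0.21), and Hjv, its co-receptor on hepatocytes (-0.87 ± 0.15), fell.

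Markers of Kupffer cells fell in 17 of 20 tested genes, 16 of them by at least 2-fold, while 1 rose. Their median was -2.64. The summed signal of the 20 markers was 30501 to 31981 in high-dose mice, against 70369 to 92494 in control mice. Csf1r, the receptor for the growth factor that macrophages need, had 1148, 1062, 1051, 1278 and 1089 in high-dose mice, against 11915, 10689, 8610.2, 10829 and 10737 in control mice. It stayed above the floor in every mouse and fell 9.35-fold (-3.21 ± 0.13). Adgre1, which encodes F4/80, had 408, 353, 347, 301 and 296 in high-dose mice, against 1084, 1011, 727, 1035 and 1052 in control mice (2.87-fold, -1.49 ± 0.17). Fcna, a ficolin of macrophages, fell 4.46-fold (-2.14 ± 0.18), Folr2, a folate receptor of resident macrophages, at least 4.19-fold (-3.14 ± 0.45), and Spic, a factor of iron-recycling macrophages, at least 1.71-fold (-1.41 ± 0.25). Lyz2 and Mpeg1, which blood phagocytes also express, did not follow. Lyz2, a lysozyme, had 2972 to 4401 in high-dose mice, against 3006 to 4131 in control mice and did not pass (-0.00 ± 0.17). Mpeg1, a pore-forming protein, had 8853, 10328, 8183, 8769 and 12006 in high-dose mice, against 5013, 4241, 3937, 4657 and 4288 in control mice and rose 2.16-fold (1.11 ± 0.16). Marco was below or near the floor in both groups and did not pass. The count was 17 lower and 1 higher under both other scalings and with each mouse left out. The markers also fell at doses that are not among the 3 called toxic. After SP70 at 10 mg/kg 13 of the 20 were lower than in control mice and 3 higher (median -0.94). After SP70 at 20 mg/kg 15 were lower and 2 higher (median -2.26).

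**Figure D3:**
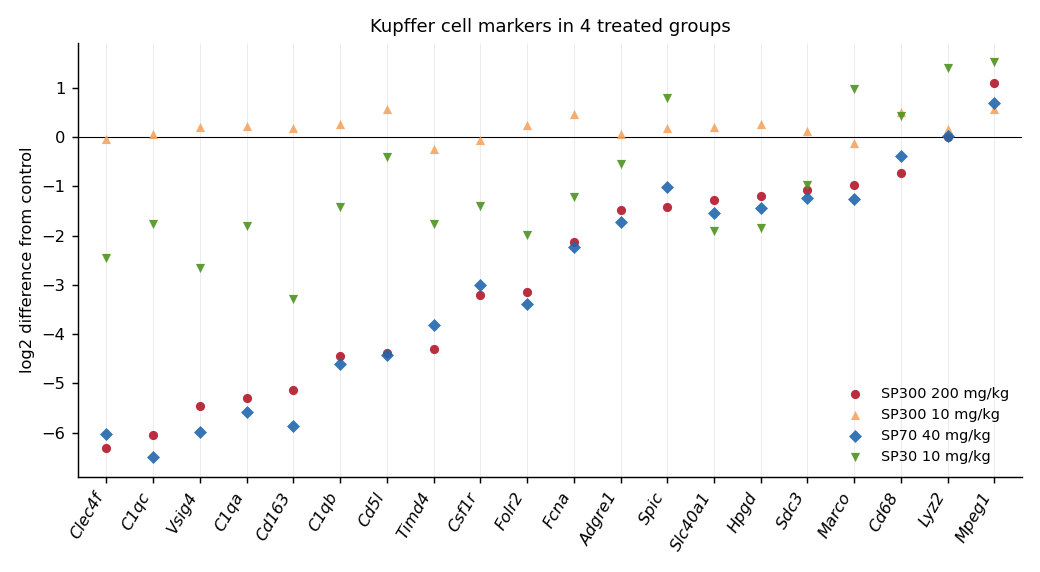
Log2 difference from control of the 20 Kupffer cell markers in 4 treated groups, ordered by the difference in the SP300 200 mg/kg group. After SP300 at 10 mg/kg the markers lie between Timd4 at -0.24 and Cd5l at 0.56, after SP300 at 200 mg/kg and SP70 at 40 mg/kg Clec4f and C1qc lie below -6, and Mpeg1 is the marker that rose in the SP300 200 mg/kg group.

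Receptors through which macrophages take up particles were lower in 9 of 16 members and higher in 2 (median -0.66). Mrc1, the mannose receptor of macrophages and sinusoidal endothelium, had 619, 1060, 1823, 1521 and 1188 in high-dose mice, against 2781, 2743, 2193, 3791 and 4207 in control mice, without overlap (2.62-fold, -1.38 ± 0.24). Fcgr3, a receptor for antibody, fell 2.77-fold (-1.43 ± 0.20), and Msr1, a scavenger receptor that binds silica, 1.54-fold (-0.61 ± 0.15). Cxcl16, a chemokine that also acts as a scavenger receptor, rose (1.51-fold, 0.58 ± 0.17). Lysosomal genes fell in 10 of 18 and rose in 1, and in 6 of 18 with centred arrays. Ctss, a cathepsin of macrophages, had 1496, 1523, 1563, 2046 and 1397 in high-dose mice, against 5726, 5271, 3767, 4223 and 6588 in control mice (3.15-fold, -1.65 ± 0.15), whereas Ctsl, a cathepsin that hepatocytes also make, rose (0.42 ± 0.08). Of 5 class II genes Cd74 (-0.89 ± 0.17) and H2-DMa (-0.75 ± 0.28) fell, and 1 of the 5 fell in centred arrays. The fall of the Kupffer cell markers went along with these changes, and its part in them was not tested.

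Markers of neutrophils rose in 9 of 16 tested genes and fell in none, with a median of 1.15. S100a8 had 5357, 8672, 6998, 10092 and 12483 in high-dose mice, against 1128, 583, 345, 765 and 577 in control mice (13.3-fold, 3.70 ± 0.23), and S100a9, its partner in calprotectin, 3587, 6813, 5353, 8113 and 11041 in high-dose mice, against 894, 565, 368, 749 and 434 in control mice (11.4-fold, 3.48 ± 0.25). For both, every high-dose mouse was above every control mouse. Csf3r, the receptor of the neutrophil growth factor, rose at least 2.82-fold (2.35 ± 0.41), and Mmp8, neutrophil collagenase, at least 1.94-fold (2.66 ± 0.36). Mpo, Elane and Ltf, 3 other markers that neutrophils load into granules, did not pass. Mpo had 106 to 176 in high-dose mice, against 38.7 to 226 in control mice. Elane had 40.6 to 172 in high-dose mice, against 14.6 to 140.4 in control mice, and Ltf 69.6 to 255, against 51.4 to 223. Of 11 monocyte markers 7 rose and 2 fell, with summed signals of 9007 to 11980 in high-dose mice, against 6507 to 8595 in control mice. F13a1, a coagulation factor subunit of monocytes, had 770.5, 634, 752, 835 and 882 in high-dose mice, against 109.9, 151, 109, 109.9 and 103 in control mice (at least 4.67-fold, 2.61 ± 0.16). Ms4a4c (at least 1.64-fold, 1.39 ± 0.18) and the proteoglycan Vcan (at least 1.36-fold, 2.17 ± 0.28) rose as well, and Ccr2, the receptor of Ccl2, was at least 1.45-fold higher (0.61 ± 0.20). Fcgr1, a high-affinity receptor for antibody (-1.66 ± 0.30), and Cybb fell, both also made by Kupffer cells. Of 19 lymphocyte markers 7 were tested, and 0 passed in limma, with 0 at an unadjusted p under 0.05.

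Among adhesion molecules Icam1 had 2049.8, 4052, 2160.4, 4212 and 5439 in high-dose mice, against 804, 781, 604, 879.7 and 870.1 in control mice (4.27-fold, 2.08 ± 0.20), and Selp, the P-selectin of endothelium and platelets, 426 to 772 in high-dose mice, against 167 to 262 in control mice (2.91-fold, 1.49 ± 0.23). Vcam1 (-0.59 ± 0.22), which binds monocytes and lymphocytes, and Itgal, a leukocyte integrin subunit (-1.29 ± 0.36), fell, and 6 of the 11 did not pass. The 3 rises became 6, with 1 fall, without high-dose mouse 1, and the 2 falls became 1 without high-dose mouse 2 or 3 or control mouse 1 or 5. Timp1, an inhibitor of matrix proteases, had 623, 887, 493, 727 and 1354 in high-dose mice, against 183, 136, 74.7, 161 and 89.1 in control mice (at least 4.56-fold, 2.54 ± 0.29), and Adamts4, a protease that cuts proteoglycans, rose at least 2.35-fold (2.09 ± 0.38). Markers of sinusoidal endothelium were lower in 12 of 25 and higher in 2, at a median of -0.42 with a summed signal of 20433 to 39773 in high-dose mice, against 44557 to 60000 in control mice. Clec4g, a lectin of these cells, had 1590.1, 3283, 4060, 3694 and 2935 in high-dose mice, against 5657, 5997, 6870.1, 8951 and 10029 in control mice, with no overlap (2.47-fold, -1.30 ± 0.26). Ptprb, a phosphatase of endothelium, fell 2.20-fold (-1.14 ± 0.15), Kdr, the main receptor of VEGF, 2.20-fold (-1.13 ± 0.21), and Ehd3, an endocytic protein, 2.08-fold (-1.05 ± 0.14). Lyve1, the hyaluronan receptor of the same cells, had 749, 3724, 4213, 4201 and 5439.8 in high-dose mice, against 896, 909, 462, 944 and 2210 in control mice, so that it rose (1.67 ± 0.42) with ranges that overlapped, and Cdh5, a junction protein of all endothelium, rose 1.80-fold (0.83 ± 0.24). Stab1 (-0.16 ± 0.14), a scavenger receptor of endothelium and macrophages, did not pass. Of 18 stellate cell and fibroblast markers 5 fell and 2 rose. Colec11, a collectin, fell 2.42-fold (-1.27 ± 0.24), and Lrat, the enzyme that stores vitamin A, 2.39-fold (-1.24 ± 0.26), while Acta2, the actin of smooth muscle and activated stellate cells, rose 1.85-fold (0.88 ± 0.20).

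Secreted proteins and enzymes that mark hepatocytes changed little. Alb, albumin, had 60791 to 73107 in high-dose mice, against 68202 to 81400 in control mice (-0.23 ± 0.08), and 7 of 16 hepatocyte markers fell, the largest of these by 0.24 on the log2 scale (Apoa2). This count was 1 after quantile normalization, 0 in centred arrays and as low as 1 with 1 mouse left out (high-dose mouse 2), so these calls rest on the scaling. Summed over the 16 markers the signal was 977930 to 1121300 in high-dose mice, against 1108800 to 1170500 in control mice. Transcription factors of hepatocytes, in contrast, held large falls, with 10 of 20 lower and 3 higher, a count of 10 and 3 under both scalings as well. None rose without high-dose mouse 2, and 1 without control mouse 2 or 5. Beside Onecut1, its relative Onecut2 had 1177, 1071, 1096, 1247 and 1203 in high-dose mice, against 2919, 2595, 2627, 2669 and 3068 in control mice (2.39-fold, -1.25 ± 0.15). The pioneer factor Foxa1 had 1136, 1099, 1344, 1190.4 and 1285 in high-dose mice, against 2288, 3665, 3386, 5436 and 5668 in control mice (3.21-fold, -1.67 ± 0.20), and Foxa2 2352, 1755, 1734, 1831 and 2048 in high-dose mice, against 4269, 4290, 3464, 3969 and 3672 in control mice (2.03-fold, -1.02 ± 0.20). For each of these factors all high-dose mice were below all control mice. Ahr, the receptor for dioxins and indoles (-0.99 ± 0.18), Cebpa (-0.72 ± 0.13) and Nr1i3, or CAR (-0.70 ± 0.17), both regulators of liver metabolism, also fell. Hnf4a, the master regulator of the hepatocyte, rose slightly (0.29 ± 0.10, adjusted p = 0.0205), as did Foxa3 (0.27 ± 0.10) and Prox1 (0.64 ± 0.21).

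Genes of the growth hormone axis fell in 8 of 12 members, while 2 rose, and 6 fell in centred arrays. Growth hormone acts on hepatocytes through STAT5, which drives Socs2, Cish, Igf1 and Igfals. Socs2, a feedback inhibitor of the receptor, had 399, 1014, 562, 1417 and 619 in high-dose mice, against 6649, 4059, 3566, 5872 and 9847 in control mice. The groups did not overlap, and the fall was 7.75-fold (-2.93 ± 0.46). Cish, another feedback inhibitor, fell 2.74-fold (-1.44 ± 0.26), and Igfals, which keeps IGF1 in the circulation, had 2099.8, 2351, 1951, 2354 and 2378 in high-dose mice, against 4586, 4754, 5713, 5361 and 4708 in control mice (2.25-fold, -1.17 ± 0.14). The receptor Ghr fell less (-0.44 ± 0.09), and Igf1 fell by 0.20 on the log2 scale. Igfbp1, a binding protein that stress and fasting induce, had 20998, 20307, 15756, 24784 and 10363 in high-dose mice, against 7976, 13601, 9942, 1175 and 3825 in control mice, an overlapping rise of 3.24-fold (1.69 ± 0.42).

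**Figure D4:**
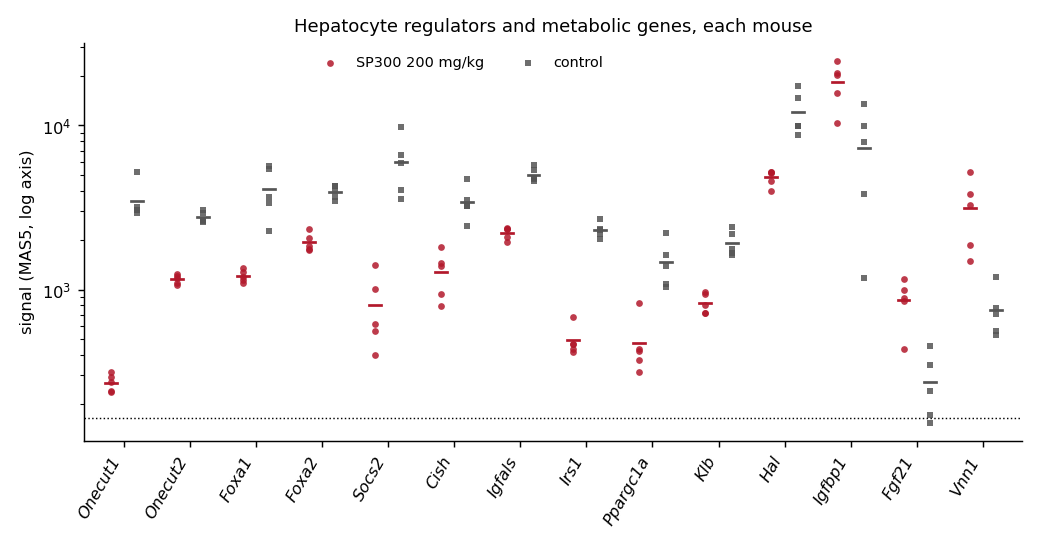
Signal of each mouse on a log axis for 14 hepatocyte regulators and metabolic genes, high-dose mice as circles left of control mice as squares, with group means as short bars and the floor of 165 dotted. Onecut1, Socs2 and Irs1 are lower in all high-dose mice than in any control mouse, while Igfbp1 overlaps.

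Genes of metabolism fell more often than they rose, mostly by less than 2-fold. Among all genes more fell than rose as well, 18.0% against 12.6%, and the counts of this paragraph stand beside those shares. Irs1, the docking protein of the insulin receptor, had 676, 418, 468, 437 and 466 in high-dose mice, against 2702, 2338, 2027, 2188 and 2309 in control mice, with no overlap (4.74-fold, -2.22 ± 0.16). Ppargc1a, a co-activator of fasting and mitochondrial genes, had 833, 370.0, 420.1, 437 and 314 in high-dose mice, against 2205, 1616, 1382, 1074 and 1042 in control mice (3.15-fold, -1.63 ± 0.26). G6pc, which releases glucose, fell 2.04-fold (-1.03 ± 0.25), whereas Pck1, the other classic gluconeogenic gene, did not pass (-0.03 ± 0.12), and 9 of 18 genes of glucose and glycogen fell with 1 rising. In bile acid synthesis 6 of 15 fell. Klb, the co-receptor for FGF15 and FGF21, fell 2.31-fold (-1.20 ± 0.17), while Cyp7a1, the rate-limiting enzyme of bile acid synthesis, had 5535 to 14194 in high-dose mice, against 2641 to 18056 in control mice, a wide spread in which no difference passed (0.32 ± 0.61). Of 17 transporters 10 fell, among them the bile salt importer Slc10a1 (-0.38 ± 0.07), the bile salt exporter Abcb11 (-0.56 ± 0.11), Abcg8, which exports sterols (-0.81 ± 0.15), and Slco2b1, an importer of organic anions (-0.68 ± 0.10). Cytochromes P450 of families 1 to 4 fell in 10 of 30 and rose in none (1 under both other scalings, 2 without control mouse 1), among them Cyp1a2 (-0.37 ± 0.07) and Cyp4v3 (-0.46 ± 0.09). In phase II conjugation 6 of 19 fell, with Ugt3a2 at -0.66 ± 0.09, and Sult1a1, a sulfotransferase, rose (0.60 ± 0.12). Of 21 genes of urea and amino acid breakdown 9 fell, and 5 in centred arrays or without high-dose mouse 2. Hal, the first enzyme of histidine breakdown, had 5173, 4612, 4014, 5102 and 5224 in high-dose mice, against 14758, 17398, 9890.3, 8714 and 9943 in control mice (2.44-fold, -1.28 ± 0.17), and Cth, which makes cysteine, fell 1.51-fold (-0.59 ± 0.11). Fatty acid oxidation fell in 7 of 18 and rose in 2. Fgf21, a fasting hormone of the liver (at least 3.24-fold, 1.66 ± 0.33), and Vnn1, which makes pantothenate (3.91-fold, 1.95 ± 0.33), were the rising members, and 4 rose without high-dose mouse 5. Of 20 lipid synthesis genes 4 fell, close to the 18.0% of all genes that fell and between 1 (without high-dose mouse 2 or control mouse 2) and 7 (without control mouse 5) with 1 mouse left out, with Fdft1, a squalene synthase, at -0.83 ± 0.23. Subunits of the respiratory chain fell in 11 of 19, none by more than 0.34 on the log2 scale (Ndufs1), and in 4 of 19 with centred arrays or 6 without high-dose mouse 2 or 5. After quantile normalization and in centred arrays the falling genes numbered 8 and 8 for glucose and glycogen, 5 and 4 for bile acid synthesis, 9 and 9 for transporters, 10 and 9 for cytochromes P450, 7 and 6 for phase II conjugation, 7 and 6 for fatty acid oxidation, and 2 and 3 for lipid synthesis.

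Genes of the unfolded protein response, which restores folding in the endoplasmic reticulum, rose in 18 of 24 and fell in none, with a median of 0.69. Creld2 had 20351, 25534, 25565, 24379 and 27456 in high-dose mice, against 2862, 2695, 5320.4, 4578 and 7609 in control mice (5.74-fold, 2.52 ± 0.27), and Sdf2l1, a partner of the chaperone BiP, 9218, 13551, 10767, 11468 and 17207 in high-dose mice, against 1563, 2645, 3047, 4579 and 5046 in control mice (3.91-fold, 1.96 ± 0.26). The groups did not overlap for either gene. Syvn1, a ubiquitin ligase that clears misfolded proteins, had 15275 to 23959 in high-dose mice, against 4775 to 6288 in control mice (3.64-fold, 1.86 ± 0.18), and Dnajb9, a co-chaperone, 29521, 31645, 33067, 33338 and 32279 in high-dose mice, against 9125, 9343, 10531, 8994 and 10196 in control mice (3.32-fold, 1.73 ± 0.10). Manf rose 2.99-fold (1.58 ± 0.19), Hspa5, which encodes BiP, 1.69-fold (0.76 ± 0.11), and Ddit3, or CHOP, 1.92-fold (0.92 ± 0.21). The factor Atf4 (0.34 ± 0.16) and, among its targets, Asns (0.66 ± 0.29), Chac1 (0.40 ± 0.22) and Sesn2 (0.08 ± 0.32) did not pass as fitted. Trib3, in the same list of unfolded protein response genes and ATF4 targets, rose (0.85, adjusted p = 0.00162). With all probe sets of a gene averaged Asns (1.41, adjusted p = 0.00129) and Atf4 (0.43, adjusted p = 0.00184) passed. Asns also passed without high-dose mouse 5 (adjusted p = 0.0390) or control mouse 2 (0.0357), Atf4 in the fit of only these 10 arrays (0.0128), and Sesn2 without high-dose mouse 5 (0.59, adjusted p = 0.0497). Of 14 cytosolic chaperones and their partners 1 rose (Bag3, 0.82 ± 0.19) and 4 fell, among them Hsp90aa1 (-0.42 ± 0.15). In centred arrays 2 fell, while 3 rose and 2 fell without control mouse 5. Over all genes 12.6% rose and 18.0% fell. Subunits of the constitutive proteasome rose in 9 of 25 by small amounts, led by Psma5 (0.61 ± 0.09; 2 of 3 probe sets).

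Immediate early genes, transcribed within minutes of a stimulus, rose in 14 of 28 and fell in 5, or in 3 without high-dose mouse 2 or control mouse 2. Ier3, a regulator of survival, had 615, 1209, 564, 1332 and 1990 in high-dose mice, against 38.6, 111, 16.2, 212 and 137 in control mice (at least 5.89-fold, 3.52 ± 0.39). Egr1, a growth-factor-induced transcription factor, had 1647, 2977, 1469, 2917 and 2050.5 in high-dose mice, against 901, 459, 581, 241 and 330.4 in control mice (4.69-fold, 2.19 ± 0.27), and Junb, an AP-1 subunit, 582 to 1427 in high-dose mice, against 212 to 400.3 in control mice (3.15-fold, 1.61 ± 0.22). Fos (0.72 ± 0.39, adjusted p = 0.175) and Atf3 (1.02 ± 0.40, adjusted p = 0.0519), which stress induces, did not pass as fitted. Atf3 passed after quantile normalization (adjusted p = 0.0420), in centred arrays (0.0415), with the filter on the mean (0.0480), in the fit of only these 10 arrays (0.0280) and without control mouse 1 (0.0225), and Fos passed without control mouse 3 (1.09, adjusted p = 0.0304). Myc, a driver of growth, had 191, 195, 337, 250.4 and 244 in high-dose mice, against 783, 2708, 1779, 5303 and 725 in control mice. Each high-dose mouse was below each control mouse, and the fall was 7.16-fold (-2.78 ± 0.37). Among p53 targets Cdkn1a, the inhibitor p21, had 7911, 9435, 7497, 7510 and 8028 in high-dose mice, against 5108, 4014, 607, 222 and 5233 in control mice. The control mice spread widely and all lay below the high-dose mice (4.72-fold, 2.22 ± 0.55). Of the 10 p53 targets 3 rose, beside 12.6% of all genes. Mdm2, another target of p53, did not pass (0.07 ± 0.16). Of 14 genes of cell death and the inflammasome 5 rose and 1 fell. Mlkl, the executor of necroptosis, had 869.7, 777, 732, 784 and 1056 in high-dose mice, against 331, 288, 253, 388 and 382 in control mice (2.58-fold, 1.33 ± 0.15), Bid, a mediator of apoptosis, rose 2.37-fold (1.23 ± 0.12), and Gsdmd, a pore former of pyroptosis, 1.77-fold (0.82 ± 0.11). Casp1, the inflammasome protease, fell (-1.11 ± 0.32). Targets of the antioxidant factor NRF2 split, with 5 of 16 higher and 5 lower, beside 12.6% and 18.0% of all genes. Gclc, the rate-limiting enzyme of glutathione synthesis, fell 2.48-fold (-1.31 ± 0.19), Srxn1 rose (0.59 ± 0.13), and Nqo1 did not pass (-0.15 ± 0.18).

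Genes that hypoxia induces did not move one way, with 5 of 22 higher, 4 lower and a median of -0.02 that was 0.03 under both other scalings. The higher genes numbered 3 without high-dose mouse 4 or 5 or control mouse 1 or 4. Adm, a vasodilator peptide and target of the hypoxia factor HIF, had 90.2, 168, 226, 63 and 113 in high-dose mice, against 99.7, 259.6, 56.3, 134 and 208 in control mice and did not pass (-0.14 ± 0.41). Vegfa, the growth factor of endothelium, fell 1.53-fold (-0.61 ± 0.16), as did Pfkfb3, a regulator of glycolysis (-1.63 ± 0.33; 1 of 2 probe sets), and Ldha, lactate dehydrogenase A, rose (0.50 ± 0.08). Cell cycle genes fell in 1 of 17 (Pcna, -0.31 ± 0.11) and clock genes in 2 of 16, both below the share of all genes that fell. Of 22 ribosome biogenesis genes 4 rose, beside 12.6% of all genes. The count was 0 without control mouse 4, and 1 without high-dose mouse 2 or 4 or control mouse 3.

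The other treated groups place these values, and since all were compared with the same 5 control mice, differences between groups were tested directly. Against SP300 at 10 mg/kg, the same particle at a lower dose, 1189 genes (9.38%) were higher at 200 mg/kg and 2826 (22.3%) lower. With arrays centred on their medians 1780 were higher and 1847 lower, with quantile normalization 1816 and 1859, and the median of all genes was -0.01 under both, against -0.11 as deposited. Clec4f had 21.2, 127, 13.6, 43.5 and 22.4 after 200 mg/kg, against 3470.3, 4590.4, 3528, 3562 and 3422 after 10 mg/kg, and Ccl2 had 683, 1884, 725, 1678 and 2069 after 200 mg/kg, against 8.82, 18.7, 12.3, 12.4 and 8.35 after 10 mg/kg. The groups did not overlap for either gene. The 5 highest genes of this comparison were Saa3, Ccl2, Cxcl2, Cxcl9 and Clec4d, and the 5 lowest Clec4f, C1qc, Vsig4, C1qa and Cd163, all among the genes above. The rule that chose these genes required groups that do not overlap. After 10 mg/kg 117 genes (0.923%) were higher than in control mice and 31 (0.245%) lower, and of the Kupffer cell markers 0 passed in either direction. Of the 814 listed genes tested, 8 were lower after 10 mg/kg than in control mice: Cish, Dusp1, Foxa1, Gadd45g, Irgm2, Myc, Onecut1 and Socs2. Others were higher after 10 mg/kg, among them Ccl9, Dnajb9, Il1r1, Il6ra, Lbp, Lcn2, Mt1, Mt2, Pim1, Sult1a1, Trib3 and Vcam1. Lcn2 was at 1.46 against control, Mt2 at 1.70, Mt1 at 1.14 and Il1r1 at 1.26. These comparisons share the control mice with those above. Cish was higher after 200 than after 10 mg/kg, with 935, 1452, 790.4, 1391 and 1821 after 200 mg/kg, against 739, 426, 744, 533 and 676 after 10 mg/kg. Every mouse given 200 mg/kg was above every mouse given 10 mg/kg (0.99 ± 0.26, adjusted p = 0.00307). Socs2 was lower after 200 than after 10 mg/kg (-1.17 ± 0.46, adjusted p = 0.0474), with ranges that overlapped. Vcam1, which fell after 200 mg/kg, was higher after 10 mg/kg than in control mice (0.90, adjusted p = 0.0265). After 10 mg/kg Onecut1 had 1326, 255, 782, 1198 and 413 (-2.32 against control, adjusted p = 0.0221). The difference between 200 and 10 mg/kg for Onecut1 was -1.27 ± 0.55 (adjusted p = 0.0722).

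Against SP70 at 40 mg/kg, 1318 genes (10.4%) were higher in high-dose mice and 636 (5.02%) lower. In arrays centred on their medians 1950 were higher and 621 lower, and after quantile normalization 1208 and 769. Of the 20 Kupffer cell markers 0 were called in limma and 1 was higher at an unadjusted p under 0.05, and the difference for Clec4f was -0.28 ± 0.47 and for Csf1r -0.22 ± 0.13. Of the unfolded protein response 2 of 24 genes were higher and 1 lower. Of genes of hypoxia 17 of 22 were lower in high-dose mice and 0 higher. Adm had 90.2, 168, 226, 63 and 113 in high-dose mice, against 2732, 1765, 2504, 5299.9 and 1518 after SP70 (-4.24 ± 0.41), and Ankrd37, a HIF target, 8.26, 85.2, 31.6, 28.9 and 118 in high-dose mice, against 1422, 732, 2736, 1388 and 1045 after SP70 (-4.62 ± 0.53). Pfkfb3 (-3.84 ± 0.33), Ier3 (-3.71 ± 0.39) and Rnd1, a small GTPase (-3.71 ± 0.40), completed the 5 lowest. Immediate early genes were lower in 22 of 28, with Jun at -2.29 ± 0.27 and Atf3 at -2.81 ± 0.40. All 7 neutrophil chemoattractants were lower, Cxcl2 by most (-3.58 ± 0.36), and Cxcl10 was lower too (-3.12 ± 0.37). Markers of sinusoidal endothelium numbered 25, of which 14 were higher and 1 was lower. Kdr was at 1.33 ± 0.21 and Clec4g at 1.34 ± 0.26. Armcx4 was the gene that was highest in high-dose mice by this comparison, with 601, 1181, 1392, 1398 and 1462 in high-dose mice, against 324, 269, 90.7, 375 and 333 after SP70 (2.14 ± 0.30), followed by Ccdc151, Klhl4, Ppp1r3c and 9930012K11Rik, of which Ppp1r3c, a glycogen-targeting subunit, had signals well above the floor (1.72 ± 0.40).

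**Figure D5:**
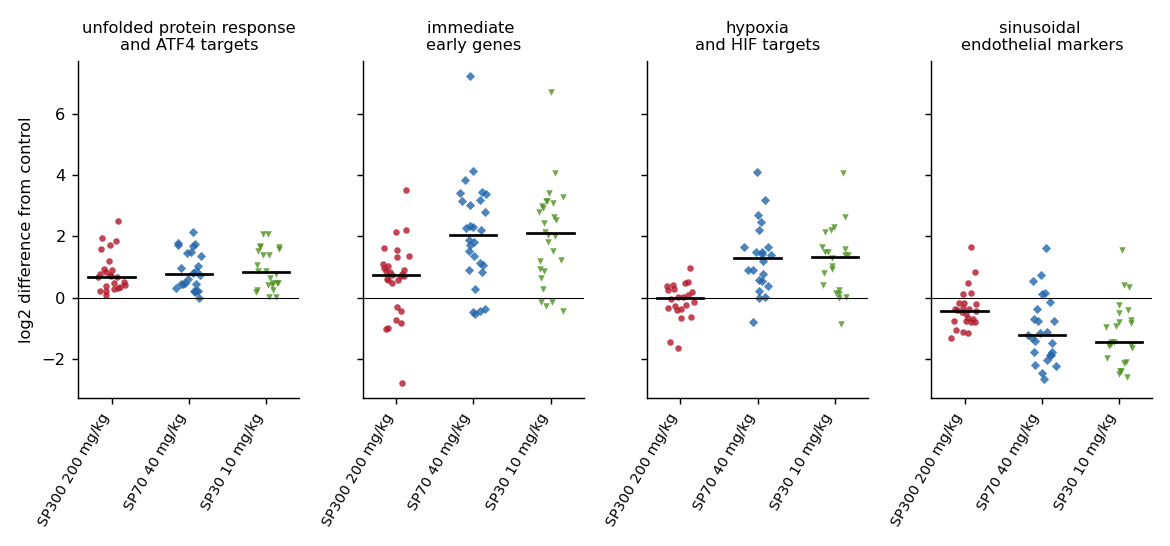
Log2 difference from control of the members of 4 gene lists after SP300 at 200 mg/kg, SP70 at 40 mg/kg and SP30 at 10 mg/kg, 1 point per gene, with the median as a bar and the same control mice in all 3. The medians of the unfolded protein response lie between 0.69 and 0.82. Those of immediate early and hypoxia genes are lower, and that of endothelial markers nearer 0, after SP300 than at these doses of SP70 and SP30. After SP70 at 10 and 20 mg/kg, not drawn, the medians were 1.25 and 1.03 for immediate early genes and 0.33 and 0.09 for hypoxia genes. For endothelial markers they were -0.25 and -0.27, against -0.42 after SP300 at 200 mg/kg.

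Against SP30 at 10 mg/kg, 2214 genes (17.5%) were higher in high-dose mice and 1474 (11.6%) lower. Here the Kupffer cell markers differed, with 16 of 20 lower in high-dose mice and 2 higher, and a median difference of -1.83. C1qc had 24.7, 32.8, 20.3, 35.8 and 8.47 in high-dose mice, against 519, 838, 476, 499.7 and 1306 after SP30 (-4.27 ± 0.35), and Cd5l 141, 56.8, 156, 145 and 135 in high-dose mice, against 1406, 2292, 1916, 2212 and 2884 after SP30 (-3.98 ± 0.29). Hypoxia genes were lower in 16 of 22 and immediate early genes in 22 of 28, and Pfkfb3 (-4.25 ± 0.33), Adm (-4.20 ± 0.41) and Rnd1 (-3.97 ± 0.40) were the other 3 of the 5 lowest genes. Genes that type I interferon induces were lower in 14 of 22, with Rsad2 at -2.13 ± 0.23 and Ifit1 at -1.80 ± 0.21. Endothelial markers were higher in 18 of 25, with Kdr at 1.36 ± 0.21. G0s2, an inhibitor of fat breakdown, was highest by this comparison, with 25588, 20386, 27711, 18621 and 11006 in high-dose mice, against 2242, 713, 1854, 468 and 1537 after SP30 (4.06 ± 0.49). Ntn4, a netrin of basement membranes (3.27 ± 0.25), S1pr5 (2.81 ± 0.48), Lrrc4c (2.55 ± 0.31) and Sox17, an endothelial transcription factor (2.48 ± 0.38), followed, all with signals below 165 in every mouse after SP30.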

How the data were processed

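Liver RNA of 35 mice was measured on 1 array each. The deposited table holds signal intensity per probe set on a linear scale, made with MAS5 per the submitters' processing notes, while the scaling target is not stated in those notes. Of 45101 probe sets, 34945 had 1 gene symbol in the platform annotation, 932 several and 9160 none. Probe sets with 5 or more arrays above the table's median signal of 165 were kept, and a gene was its kept probe set with the highest mean, which gave 12678 genes. log2(signal + 12.5) was fitted in limma 3.58.1 (R 4.3.3) with 7 group means over 35 arrays, a variance trend and Benjamini-Hochberg adjustment over all genes. Fold changes understate low genes on this scale. Named genes were the 12 highest and 12 lowest against control and the 5 highest and 5 lowest against each other group, among genes past the threshold whose groups do not overlap, up to 4 of each list with the smallest adjusted p, and any other list member with its values. The comparison and the 51 lists (814 distinct genes tested) were chosen with earlier results of these data known. The mice are separate animals per the labels. Single measures were compared by exact two-sided permutation. The fitting was tested on simulated data. No 2 arrays held identical values, and the number of arrays limits the precision.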

Additional observations from a re-analysis of the deposited data

Results flagged for a closer look

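For 36 signals and 1 array measure a single mouse lay apart from the 4 others of its group by Dixon's test, of 486 groups tested, where chance gives about 1 in 20. The values in brackets are that mouse's signals, with its place in the group. In high-dose mouse 1 these were Alb (highest, 73107), Apoa2 (highest, 85140), Armcx4 (lowest, 601), Casp1 (lowest, 20.3), Ccdc151 (highest, 329), Hsp90aa1 (lowest, 22875), Irs1 (highest, 676), Kdr (lowest, 644), Lbp (lowest, 19758), Ldha (lowest, 39907), Lyve1 (lowest, 749), Myd88 (lowest, 1917) and Vcan (lowest, 117). In high-dose mouse 2 these were Cd5l (lowest, 56.8), Cfp (lowest, 43.3), Igtp (lowest, 4963) and Psma5 (highest, 25949). In high-dose mouse 3 these were Csf3 (highest, 118), Nfkbia (lowest, 15630) and Orm2 (lowest, 21665). In high-dose mouse 4 this was Spic (highest, 243). In high-dose mouse 5 these were Acta2 (lowest, 826), Adgre4 (lowest, 3.32), Sesn2 (lowest, 91.8) and Vsig4 (lowest, 15.5). In control mouse 1 these were Chil3 (highest, 68.6), Igf1 (lowest, 37582) and Nfkbiz (highest, 1563). In control mouse 2 this was F13a1 (highest, 151). In control mouse 3 these were Adgre1 (lowest, 727), Clec4f (lowest, 3055), Fcgr1 (lowest, 159.8) and Slco2b1 (highest, 12277). In control mouse 5 these were Il1r1 (highest, 2636), Mpo (lowest, 38.7) and Onecut1 (highest, 5204). The 3′ over 5′ ratio of beta-actin was 1.66 in high-dose mouse 5, below its 4 group mates.

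Probe sets left out of the comparison also changed. Of 3588 tested probe sets with no gene in the annotation table, 388 (10.8%) passed against control, 148 higher and 240 lower in high-dose mice. Of 616 assigned to several genes, 138 (22.4%) passed, 75 higher and 63 lower.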

How the results depend on the processing

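Against control the counts of 1595 higher and 2284 lower genes stayed within 1.5 times under each alternative run: other pseudocounts, filters, scalings, probe set rules, a fit of only these arrays, no variance trend, and each mouse left out (1345 to 1633 higher and 1880 to 2157 lower). The same held against SP70 at 40 mg/kg and SP30 at 10 mg/kg. Against SP300 at 10 mg/kg it did not: after quantile normalization 1816 genes were higher and 1859 lower, and in centred arrays 1847 were lower, against 1189 and 2826. The cause was not tested. Same-numbered mice had a mean correlation of deviations of -0.027 and others 0.0067, so no pairing by label number was seen. The replicate block gave 1567 higher and 2259 lower genes. With beta-actin in place of Gapdh the 3′ over 5′ ratio differed by -0.481, against -0.0222. Of 240 named genes checked, 209 kept their side of the threshold under every alternative and no call was reversed. Calls against control were lost without 1 mouse for Alb (adjusted p 0.0923 without control mouse 3), Apoa2 (0.0788, control mouse 3), Ccl6 (0.0749, control mouse 5), Ccr2 (0.0786, high-dose mouse 2), Foxa3 (0.132, control mouse 3), H2-DMa (0.212, high-dose mouse 5), Hnf4a (0.0709, control mouse 4), Hsp90aa1 (0.116, control mouse 5), Il1a (0.121, high-dose mouse 4), Pcna (0.0958, high-dose mouse 4), Prox1 (0.0844, control mouse 2) and Vcam1 (0.154, control mouse 5), each given at its highest value. Those of Dusp1 (0.0834, control mouse 2), Gadd45g (0.106, control mouse 4), Jun (0.167, control mouse 4) and Ankrd37 (0.125, high-dose mouse 1) were lost too. Both other scalings ended the calls of Alb, Apoa2, H2-DMa, Hsp90aa1, Igf1, Il1a and Pcna (adjusted p 0.0507 to 0.171). Averaging probe sets ended the calls of Mt1 (0.402), Msr1 (0.136), Pfkfb3 (0.0638) and Vcam1 (0.267). Fitting only the 10 arrays ended those of Tnf (0.0676), Casp1 (0.0777), Foxa3 (0.0549), H2-DMa (0.105), Jun (0.0565) and Vcam1 (0.0573). With no filter the calls of Alb, Apoa2, H2-DMa, Il1a, Jun and Vcam1 were lost (adjusted p 0.0501 to 0.0661). Those of Alb (0.0539) and Jun (0.0571) were lost with no variance trend, and that of Ankrd37 (0.0599) with a pseudocount of 50. Calls against control were gained by Asns, Atf3, Atf4, Fga, Fos, Hp and Sesn2, as given with these genes, and by G0s2 (adjusted p 0.0132, only the 10 arrays) and Sox17 (0.0238 without high-dose mouse 1, 0.0496 with a pseudocount of 50). Signals below 165 limit every fold given as at least, since the table holds no detection calls.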
